A study of Mus musculus with 6 samples.

Results

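The NRF2 antioxidant genes examined here were a set of 10 transcripts: the transcription factor *Nfe2l2* (NRF2), its inhibitor *Keap1*, and the target genes *Hmox1*, *Nqo1*, *Gclm*, *Gclc*, *Txnrd1*, *Srxn1*, *Slc7a11* and *Prdx1*. They were taken by gene symbol from a list drawn up with earlier results of these data known, and all 10 were found among the 24786 symbols of the expression table. In macrophages with less *Etv5*, the set split: *Hmox1*, *Slc7a11*, *Srxn1*, *Prdx1*, *Gclm* and *Txnrd1* rose, *Nfe2l2*, *Keap1* and *Gclc* fell, and *Nqo1* was close to 0 in every library.

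As background, NRF2 is a basic leucine zipper protein that KEAP1 holds in the cytoplasm and hands to a CUL3 ubiquitin ligase for degradation. Oxidants and electrophiles modify cysteines of KEAP1, NRF2 then escapes, enters the nucleus and binds, together with a small MAF protein, to antioxidant response elements near genes for glutathione synthesis, thioredoxin reduction and haem breakdown. In macrophages this pathway is known for protecting the cell from its own oxidants and for restraining inflammatory cytokine genes. Since NRF2 is controlled mainly by protein stability, its transcript level does not measure its activity.

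All libraries came from Raw264.7, a mouse macrophage line established from an Abelson virus-induced tumor, which the labels assign to strain C57BL/6 and to post natal day 21. The study purchased this line and names C57BL/6 for the mice of its other experiments. The strain and age labels may therefore describe other samples and not the line itself. Cells were infected with lentivirus that carried either a negative control hairpin (3 libraries, sh-NC) or a hairpin targeting *Etv5* (3 libraries, sh-*Etv5*), and polyA RNA of stably transfected cells was sequenced. The groups differed in no other labelled factor. The labels mention 24 or 48 hours after infection for measurements in general, and neither the shRNA used nor the number of separate infections or clones is stated for these libraries, so the p-values below measure the spread between libraries, which may be technical. The comparison asks which transcripts differ along with *Etv5*, an ETS family transcription factor. Effects of the hairpin or of the infected line apart from *Etv5* were not tested in these libraries.

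The values are RPKM, that is reads scaled by gene length and by the mapped reads of the library. They summed to between 320462 and 322949 in sh-NC and to between 330454 and 340257 in sh-*Etv5*, and the depth of the libraries is unknown. *Etv5* itself averaged 9.49 ± 0.367 RPKM in sh-NC and 5.13 ± 0.196 RPKM in sh-*Etv5* (SD, n = 3), a decrease in every knockdown library. Of 10 macrophage markers, 9 passed the filter on low values, and 4 of them rose while 4 fell. Over all tested genes, 33.3% were higher and 41.0% lower. The log2 fold changes of the 9 markers ran from -0.81 to 1.88, with a median of 0.06. *Lyz2* averaged 2834 and 2041 RPKM, *Cd68* 364.6 and 246.0 RPKM and *Csf1r* 428.5 and 243.5 RPKM in sh-NC and sh-*Etv5*, whereas *Adgre1* went from 2.60 to 11.3 RPKM. None of 20 fibroblast, epithelial and lymphocyte markers exceeded 0.367 RPKM in any library. Their summed level was 0.0513 to 0.0642 RPKM in sh-NC and 0.156 to 0.214 RPKM in sh-*Etv5* for the fibroblast and epithelial list, and 0.120 to 0.223 RPKM and 0.307 to 0.782 RPKM for the lymphocyte list. The part of these differences in the results on NRF2 genes was not tested.

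Of the 10 genes, 9 reached 1 RPKM in at least 3 libraries and were tested with limma on log2(RPKM + 1), with Benjamini-Hochberg adjustment over all 10738 genes tested. At an adjusted p under 0.05, 6 of the 9 were higher in sh-*Etv5* and 3 were lower. This has to be read against a broad change, since 74.3% of all tested genes were called, 33.3% higher and 41.0% lower. For each of the 9 genes, all control libraries lay on the same side of all knockdown libraries, which was also the case for 76.4% of all tested genes. The median absolute log2 fold change was 0.64 for the 9 genes and 0.31 over all tested genes. A log2 fold change above 0.5 in size was reached by 7 of the 9 (4 rises and 3 falls) and by 30.9% of all tested genes (15.9% higher and 15.0% lower). The median signed log2 fold change was 0.36 for the 9 genes and -0.05 for all tested genes. These figures describe the set and were not tested.

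**Figure D1:**
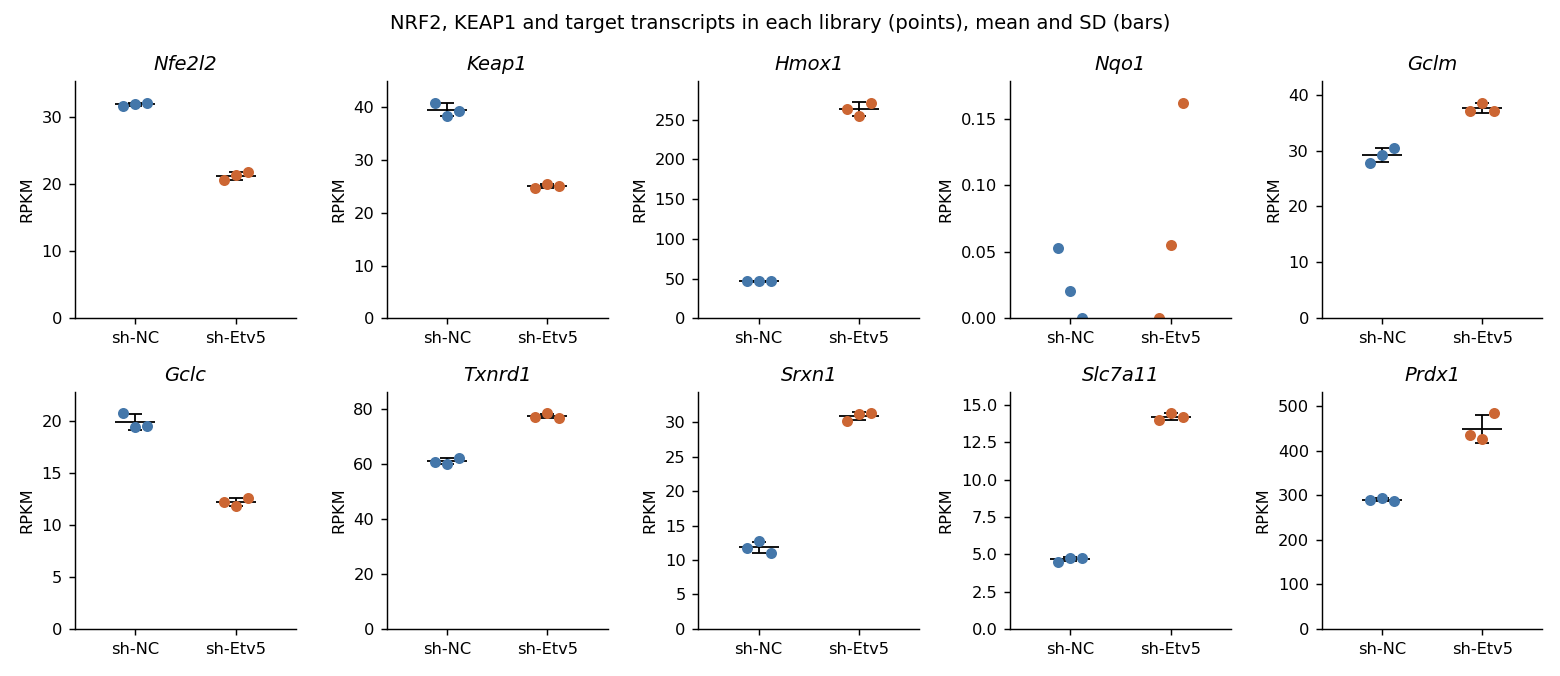
RPKM of each of the 10 genes (y axis, linear, starting at 0, scaled per gene) in the 3 sh-NC libraries (blue) and the 3 sh-Etv5 libraries (orange). The groups are separate in all panels except that of Nqo1, and bars give the mean and SD of 3 libraries in every panel but that one.

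The sequences before the start sites were searched for letters that NRF2, AP-1 and ETS proteins recognise. RefSeq sequences on GRCm38.p6 were matched by symbol for 8 of the 10 genes, with 10 start sites in all because *Txnrd1* has 3. *Hmox1* and *Gclc* were not matched. The core of the antioxidant response element, written TGACNNNGC and searched on both strands in the 250 bases before each start, was present before 4 of these 10 starts, namely those of *Nfe2l2*, *Gclm* and *Prdx1* and 1 start of *Txnrd1*. It was present before 10.2% of all 32851 starts. The related AP-1 letters TGANTCA, a palindrome on both strands, were found before 2 of the 10 starts and before 6.75% of all starts. They occurred at 2 positions each for *Srxn1* and *Prdx1*, and the second in *Prdx1* lies within its antioxidant response element match. The ETS core CGGAAG was found before the start of *Nfe2l2* alone among these genes, 167 bases before it, and before 13.6% of all starts. A match of letters is a description and does not show binding. The stretches below carry the matches in capitals, in the direction of the gene. Where the capitals begin with GC, the element is read on the opposite strand, and in *Srxn1* the capitals mark the AP-1 letters.
Gclm (chr3:122245393-122245461, plus strand): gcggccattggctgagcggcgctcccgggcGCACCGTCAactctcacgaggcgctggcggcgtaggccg
Prdx1 (chr4:116685436-116685504, plus strand): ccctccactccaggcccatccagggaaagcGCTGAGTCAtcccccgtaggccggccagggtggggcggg
Txnrd1 (chr10:82859084-82859152, plus strand): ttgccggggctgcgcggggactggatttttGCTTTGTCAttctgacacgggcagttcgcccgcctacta
Nfe2l2 (chr2:75704865-75704913, minus strand): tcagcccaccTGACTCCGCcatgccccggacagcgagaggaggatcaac
Srxn1 (chr2:152105392-152105458, plus strand): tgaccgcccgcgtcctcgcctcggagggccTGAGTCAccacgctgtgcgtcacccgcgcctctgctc
Srxn1 (chr2:152105449-152105515, plus strand): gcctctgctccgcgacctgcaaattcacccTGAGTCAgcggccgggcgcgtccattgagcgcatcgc

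The stretch of *Gclm* lies 134 bases before its start, that of *Prdx1* 133 bases, that of *Txnrd1* 92 bases and that of *Nfe2l2* 240 bases, counted to the first capital. These distances are counted to RefSeq starts, which can differ from the gene coordinates given below. The starts with matches in *Txnrd1*, *Prdx1* and *Srxn1* lie inside the annotated gene, and that of *Nfe2l2* lies outside it. The use of these starts was not measured. The matches of *Srxn1* lie 102 and 45 bases before its start. The *Nfe2l2* stretch also overlaps an exon of *E030042O20Rik*. Genes with an antioxidant response element match thus include *Nfe2l2*, which fell, as well as *Gclm*, *Prdx1* and *Txnrd1*, which rose. The letters TGACNNNGC were not found in this window for *Keap1*, *Nqo1*, *Srxn1* and *Slc7a11*. Other forms of the antioxidant response element were not searched. In *Srxn1*, the AP-1 letters 45 bases before the start are followed by GC.

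**Figure D2:**
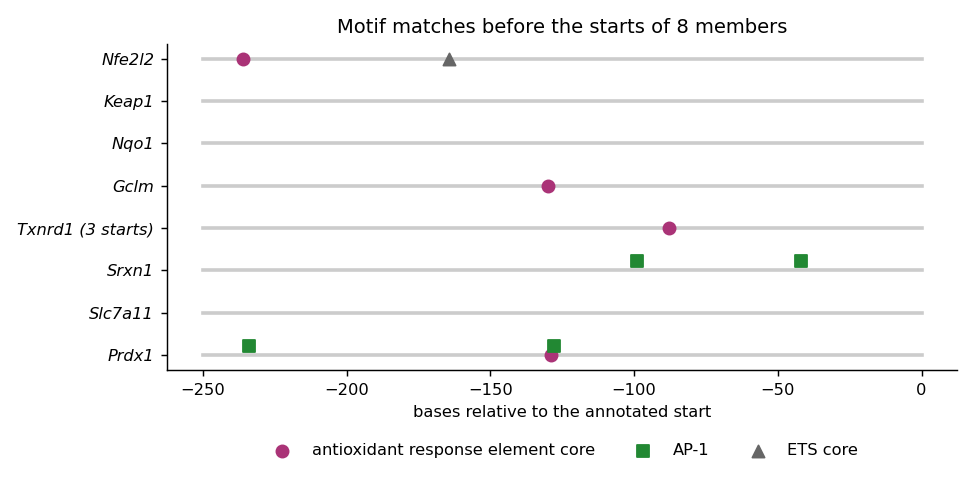
Positions of motif matches (x axis, bases relative to the annotated start) in the 250 bases before the start sites of 8 genes; circles mark the antioxidant response element core, squares the AP-1 letters and the triangle the ETS core. The 3 starts of Txnrd1 share a line, and squares are drawn slightly above it; circles appear for Nfe2l2, Gclm, Txnrd1 and Prdx1.

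The regulators fell together. *Nfe2l2* (GRCm38 chromosome 2, 75675513 to 75704641, minus strand) measured 31.7, 31.9 and 32.1 RPKM in sh-NC, and 20.6, 21.3 and 21.8 RPKM after knockdown. Every knockdown library thus lay well below every control library, and the mean fell by 33.4% (log2 fold change -0.57, standard error 0.0393, limma adjusted p = 1.86e-07). RNA of whole cultures was measured, so that fewer expressing cells and less RNA per cell cannot be told apart. *Keap1* (chromosome 9, 21229730 to 21239361, minus strand), the adaptor that targets NRF2 for degradation, stood at 40.9, 38.5 and 39.4 RPKM in sh-NC and at 24.7, 25.4 and 25.1 RPKM in sh-*Etv5*. Its mean fell by 36.7% (log2 fold change -0.64, standard error 0.0392, limma adjusted p = 6.59e-08), and again no library of one group reached the range of the other. Exons of *Keap1* overlap *Gm16754* on the opposite strand, which holds 7.78% of its 50-base sequences, and whether strand was used in counting is not given in the sources used here.

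*Hmox1* was the most changed of the 10 genes. It encodes haem oxygenase 1, the inducible enzyme that opens the haem ring and releases iron, carbon monoxide and biliverdin. *Hmox1* (chromosome 8, 75093621 to 75100589, plus strand) read 46.4, 46.2 and 46.8 RPKM in sh-NC and 264.0, 254.4 and 271.5 RPKM in sh-*Etv5*. The control libraries lay within 1 RPKM of each other, and the knockdown libraries were 5.66-fold higher on average (46.5 ± 0.299 and 263.3 ± 8.53 RPKM, SD, n = 3). On the log2 scale it rose by 2.48 (standard error 0.0342, limma adjusted p = 3.81e-13), which is rank 98 among the rises of 10738 genes. Its constitutive relative *Hmox2*, named after the values were seen, went from 37.3 ± 0.852 to 32.3 ± 0.678 RPKM (SD, n = 3; limma adjusted p = 0.000536), that is in the other direction and by far less.

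*Nqo1* (chromosome 8, 107388225 to 107403206, minus strand) encodes a quinone reductase and is the usual reporter gene of NRF2 activity. It was listed at 0.0525, 0.0204 and 0 RPKM in sh-NC and at 0, 0.0553 and 0.162 RPKM in sh-*Etv5*. The groups overlapped, and all values were far below the filter of 1 RPKM. With the filter removed, its log2 fold change was 0.06 (95% interval -0.08 to 0.21, limma adjusted p = 0.432), so a difference was not detectable at these levels. The related *Nqo2*, also named after the values were seen, was measurable and fell from 7.21 ± 0.103 to 5.74 ± 0.268 RPKM (SD, n = 3; limma adjusted p = 0.000816).

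Glutathione synthesis showed its subunits moving apart. Glutamate-cysteine ligase, the rate-limiting enzyme, consists of a catalytic subunit (*Gclc*) and a modifier subunit (*Gclm*) that raises its efficiency. *Gclm* (chromosome 3, 122245557 to 122270732, plus strand) measured 27.9, 29.3 and 30.4 RPKM in sh-NC and 37.1, 38.6 and 37.2 RPKM in sh-*Etv5*. The rise of 28.9% was modest but clear of the spread (log2 fold change 0.36, standard error 0.0425, limma adjusted p = 1.68e-05). *Gclc* (chromosome 9, 77754535 to 77794485, plus strand) instead dropped from 20.7, 19.4 and 19.5 RPKM to 12.2, 11.8 and 12.6 RPKM. Its mean fell by 38.7% (log2 fold change -0.66, standard error 0.0475, limma adjusted p = 2.35e-07), a fall close in size to that of *Keap1*. Exons of *Gclm* overlap *Gm17494* on the opposite strand and *Gm6061* on the same strand, and 4.58% of the 50-base sequences of *Gclm* transcripts also occur in other genes, whereas 0.0% of those of *Gclc* do.

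*Slc7a11* (chromosome 3, 49892526 to 50443614, minus strand) encodes xCT, the light chain of the exchanger that imports cystine for glutathione. It was the lowest of the measurable targets, at 4.50, 4.77 and 4.74 RPKM in sh-NC, and reached 14.0, 14.4 and 14.2 RPKM in sh-*Etv5*. The knockdown libraries were tightly grouped at 3.04-fold the control mean (log2 fold change 1.42, standard error 0.0512, limma adjusted p = 9.36e-10). *Slc3a2*, which encodes the heavy chain that carries xCT to the membrane and was named after the values were seen, rose from 53.6 ± 1.19 to 152.9 ± 3.75 RPKM (SD, n = 3; limma adjusted p = 2.73e-11).

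*Srxn1*, *Prdx1* and *Txnrd1*, which act with thioredoxin, rose by unequal amounts. *Srxn1* (chromosome 2, 152105516 to 152111376, plus strand) encodes sulfiredoxin, which repairs over-oxidised peroxiredoxins. It measured 11.8, 12.7 and 11.0 RPKM in sh-NC and 30.2, 31.2 and 31.3 RPKM in sh-*Etv5*, a 2.61-fold rise (log2 fold change 1.32, standard error 0.0526, limma adjusted p = 2.11e-09). *Prdx1* (chromosome 4, 116685544 to 116700822, plus strand), an abundant peroxidase and substrate of sulfiredoxin, stood at 290.3, 294.7 and 286.5 RPKM in sh-NC and at 434.8, 425.9 and 484.4 RPKM in sh-*Etv5*. Replicate 3 of sh-*Etv5* was the highest library, yet all knockdown libraries exceeded all control libraries, and the mean was 1.54-fold higher (log2 fold change 0.62, standard error 0.0457, limma adjusted p = 2.92e-07). Of the 50-base sequences of *Prdx1*, 8.81% occur in other genes, in *Gm21399* more than in any other. Some reads of *Prdx1* may therefore also match these genes. *Txnrd1* (chromosome 10, 82833951 to 82897712, plus strand), the cytosolic selenoenzyme that reduces thioredoxin, moved least, from 60.6, 59.9 and 62.1 RPKM to 77.1, 78.3 and 76.6 RPKM. Its rise of 27.0% nonetheless exceeded the spread between replicates (log2 fold change 0.34, standard error 0.0331, limma adjusted p = 3.06e-06).

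**Figure D3:**
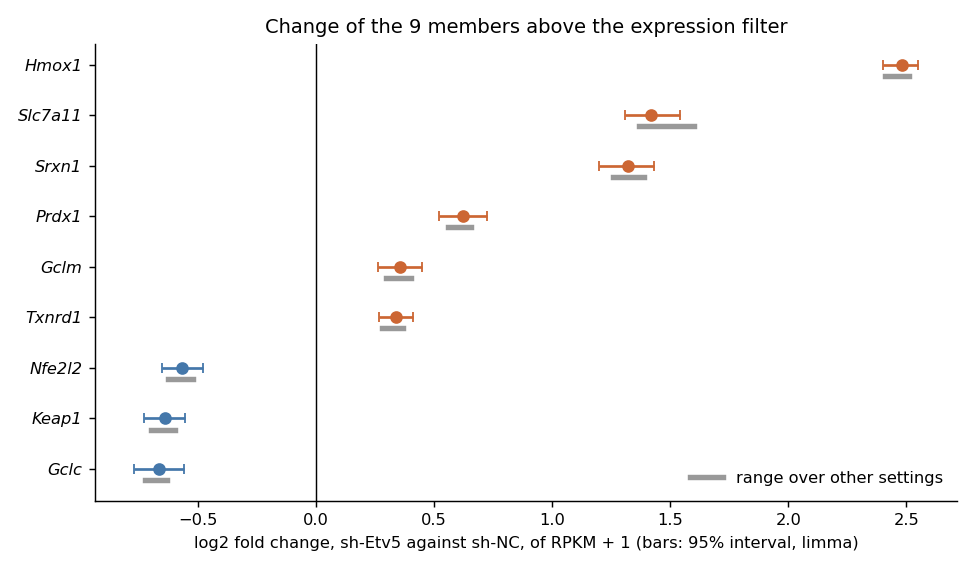
Log2 fold change of RPKM + 1, sh-Etv5 against sh-NC (x axis), of the 9 genes above the filter on low values, with the 95% interval of limma; orange marks higher and blue lower genes. Grey lines show the range over 15 other settings of the analysis, none of which crosses 0; values run from -0.66 for Gclc to 2.48 for Hmox1.

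The order of transcript levels, in RPKM and therefore per length, changed with the knockdown. In sh-NC the order from the highest was *Prdx1*, *Txnrd1*, *Hmox1*, *Keap1*, *Nfe2l2*, *Gclm*, *Gclc*, *Srxn1*, *Slc7a11* and *Nqo1*. In sh-*Etv5* it was *Prdx1*, *Hmox1*, *Txnrd1*, *Gclm*, *Srxn1*, *Keap1*, *Nfe2l2*, *Slc7a11*, *Gclc* and *Nqo1*. Within each group no neighbours in this order had overlapping libraries. *Hmox1* passed *Txnrd1*, *Gclm* passed *Keap1* and *Nfe2l2*, *Srxn1* passed *Keap1*, *Nfe2l2* and *Gclc*, and *Slc7a11* passed *Gclc*.

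Ratios within a library do not depend on how libraries are scaled. The ratio of *Gclm* to *Gclc* was 1.34, 1.51 and 1.56 in sh-NC and 3.04, 3.27 and 2.95 in sh-*Etv5*, which is 2.10-fold higher on average. The ratio of *Srxn1* to *Prdx1* was 0.0405, 0.0431 and 0.0384 in sh-NC and 0.0694, 0.0732 and 0.0646 in sh-*Etv5*, so that the repair enzyme rose more than its substrate. *Keap1* and *Nfe2l2* kept nearly the same proportion, with ratios of 1.29, 1.21 and 1.23 in sh-NC and 1.20, 1.19 and 1.15 in sh-*Etv5*. The groups were separate for each ratio, but only narrowly for that of *Keap1* to *Nfe2l2*. A two-sided exact permutation test gave p = 0.1 for each of the 3 ratios (n = 3 libraries per group), the smallest value that 3 against 3 libraries allow, and the Benjamini-Hochberg adjusted value is also 0.1.

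**Figure D4:**
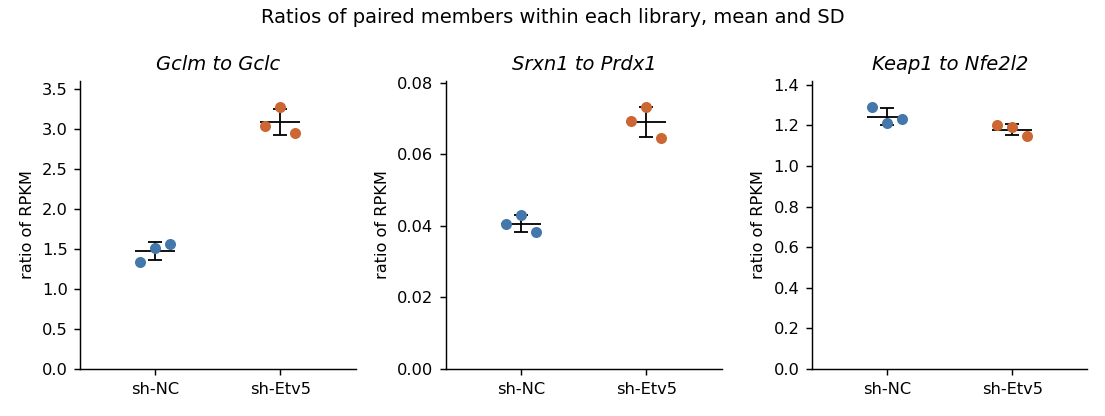
Ratio of RPKM within each library (y axis, linear, starting at 0) for Gclm to Gclc, Srxn1 to Prdx1 and Keap1 to Nfe2l2, in sh-NC (blue) and sh-Etv5 (orange), with mean and SD of 3 libraries. The mean ratio of Gclm to Gclc goes from 1.47 to 3.09, while that of Keap1 to Nfe2l2 goes from 1.24 to 1.18.

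Other genes of the pathway were read from lists drawn up by function, whose counts stand beside the 74.3% of all tested genes that were called (33.3% higher, 41.0% lower) and a median log2 fold change of -0.05 over all tested genes. Among partners, rivals and turnover factors of NRF2, 13 of 16 genes were tested, of which 9 rose, 2 fell and 2 did not pass the test (median log2 fold change 0.56). *Sqstm1*, which encodes the autophagy receptor p62 that can displace NRF2 from KEAP1, rose from 107.9 ± 1.93 to 977.5 ± 10.2 RPKM (SD, n = 3; limma adjusted p = 2.57e-14), a 9.06-fold change. *Atf3*, a stress-induced repressor, rose 9.96-fold to 119.5 ± 2.69 RPKM (SD, n = 3). Among subunits of the KEAP1 ligase, *Rbx1* fell by 20.7% and *Cul3* fell by 14.8% (limma adjusted p = 0.00212 and 0.000913). The following genes were named after their values were seen. The NRF2 paralog *Nfe2l1* rose 2.07-fold where *Nfe2l2* fell, from 39.6 ± 0.436 to 82.1 ± 2.89 RPKM (SD, n = 3; limma adjusted p = 9.21e-10). The small MAF partners were all higher, with *Maff* at 1.41 and 7.32 RPKM, *Mafk* at 13.3 and 23.0 RPKM and *Mafg* at 27.5 and 41.1 RPKM in sh-NC and sh-*Etv5*. *Bach1*, which competes with NRF2 at *Hmox1*, rose from 3.96 ± 0.236 to 4.95 ± 0.272 RPKM (SD, n = 3; limma adjusted p = 0.00425).

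In the glutathione list, 20 of 25 genes were tested, of which 11 rose, 4 fell and 5 did not pass the test (median log2 fold change 0.18), where 74.3% of all tested genes were called, 33.3% higher and 41.0% lower. *Cth*, the enzyme that makes cysteine from cystathionine, had the largest change, from 0.816, 0.883 and 0.975 RPKM to 50.2, 50.2 and 54.3 RPKM (log2 fold change 4.80; limma adjusted p = 5.89e-07 with no filter). *Cth* and *Ggt7*, 2 of the 11 higher genes, passed the filter through the sh-*Etv5* libraries alone, so they had to differ to be kept. *Chac1*, which degrades glutathione, rose 9.81-fold to 24.6 ± 0.839 RPKM (SD, n = 3). The peroxidase *Gpx1* fell by 22.5% to 245.3 ± 9.67 RPKM (SD, n = 3; limma adjusted p = 2.99e-06), and *Glrx3* fell by 10.1% (limma adjusted p = 0.0123). That call of *Glrx3* was lost with quantile normalization (limma adjusted p = 0.0527) and without sh-NC replicate 2 (0.0657). The count of 4 lower genes became 1 without sh-NC replicate 2 and 2 without sh-*Etv5* replicate 2. Glutathione reductase *Gsr*, named after the values were seen, averaged 46.3 and 47.5 RPKM (95% interval of the log2 fold change -0.07 to 0.14).

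In the thioredoxin and peroxiredoxin list without *Txnrd1*, *Srxn1* and *Prdx1*, 16 of 18 genes were tested, of which 7 rose, 6 fell and 3 did not pass the test, and the median log2 fold change was 0.02. Over all tested genes, 33.3% were higher and 41.0% lower. *Prdx5*, a peroxidase of mitochondria and peroxisomes, rose 3.42-fold from 86.8 ± 1.22 to 297.2 ± 17.7 RPKM (SD, n = 3; limma adjusted p = 3.69e-11). The sestrins parted: *Sesn2* rose from 5.97 ± 0.732 to 24.4 ± 1.78 RPKM, and *Sesn1* fell by 80.9%, from 21.1 ± 0.777 to 4.02 ± 0.239 RPKM (SD, n = 3). *Msra*, a methionine sulfoxide reductase, fell by 37.1% (limma adjusted p = 1.88e-05). *Txnrd3*, 1 of the 7 higher genes, passed the filter through the sh-*Etv5* libraries alone and had to differ. Thioredoxin itself, named after the values were seen, went from 267.0 ± 4.60 to 241.4 ± 12.7 RPKM for *Txn1* (SD, n = 3; limma adjusted p = 0.00626), against the direction of *Txnrd1*.

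Of 14 genes that supply NADPH, 13 were tested, with 6 higher, 6 lower and 1 not called (median log2 fold change -0.06), beside 33.3% higher and 41.0% lower over all tested genes. *Mthfd2* rose 2.03-fold to 118.4 ± 4.79 RPKM and malic enzyme *Me1* 1.93-fold to 11.2 ± 0.424 RPKM (SD, n = 3), while *Idh2* fell by 45.5% and *Mthfd1* fell by 33.6% (limma adjusted p = 3.28e-09 and 1.62e-07). *G6pdx*, the entry enzyme of the pentose phosphate pathway, was named after the values were seen and rose from 77.0 ± 2.24 to 109.0 ± 1.86 RPKM (SD, n = 3; limma adjusted p = 1.90e-07). Of 38 detoxification genes, 25 were tested, with 13 higher, 9 lower and 3 not called (median log2 fold change 0.15). The aldo-keto reductase *Akr1b8* rose from 11.7 ± 0.695 to 46.7 ± 1.03 RPKM (SD, n = 3; limma adjusted p = 5.44e-11), and *Gstp1* rose 2.74-fold (limma adjusted p = 1.41e-05), although reads of *Gstp1* cannot be safely told from those of its near-identical copy *Gstp2*. *Mgst3* fell by 55.6% and the epoxide hydrolase *Ephx1* fell by 58.8% (limma adjusted p = 1.14e-08 and 2.70e-05). Like *Nqo1*, 13 genes of this list were below the filter, and 5 of them were listed at 0 in every library. *Trim16*, 1 of the 13 higher genes, passed it through the sh-*Etv5* libraries alone and had to differ.

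In the haem and iron list, all 12 genes were tested, with 7 higher, 4 lower and 1 not called (median log2 fold change 0.61), beside 33.3% higher and 41.0% lower among all tested genes. *Blvrb*, a biliverdin reductase, rose 4.60-fold from 10.5 ± 1.74 to 48.4 ± 2.64 RPKM (SD, n = 3; limma adjusted p = 4.19e-09). *Slc40a1*, which encodes the iron exporter ferroportin, rose from 0.650 ± 0.00672 to 4.11 ± 0.0843 RPKM (SD, n = 3; limma adjusted p = 6.26e-06 with no filter). It is 1 of the 7 higher genes and had to differ to be kept, since it passed the filter through the sh-*Etv5* libraries alone. The ferritin chains, named after the values were seen, were among the most abundant transcripts and rose from 2031 ± 31.0 to 4159 ± 137 RPKM for *Fth1* and from 2097 ± 25.0 to 3535 ± 107 RPKM for *Ftl1* (SD, n = 3). *Ncoa4*, the receptor for ferritin degradation, fell by 34.6% and ferrochelatase *Fech* fell by 21.7% (limma adjusted p = 1.16e-06 and 0.000101).

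Of 9 superoxide and peroxide genes, 8 were tested, with 4 higher, 2 lower and 2 not called (median log2 fold change 0.15), where 33.3% of all tested genes were higher and 41.0% lower. Catalase *Cat* rose 1.99-fold to 35.4 ± 1.92 RPKM and *Aifm2*, which limits lipid peroxidation, rose 2.18-fold to 8.83 ± 0.253 RPKM (SD, n = 3). *Sod1* fell by 18.7% and *Ucp2* fell by 17.0% (limma adjusted p = 4.81e-05 and 3.65e-05). *Sod2*, named after the values were seen, rose 1.93-fold from 19.2 ± 0.463 to 37.05 ± 2.24 RPKM (SD, n = 3, limma adjusted p = 2.02e-08). Of the phagocyte NADPH oxidase, a source of superoxide, and its relatives, 8 of the 12 genes found were tested, with 4 higher, 3 lower and 1 not called (median log2 fold change 0.13), against the same shares over all tested genes. *Ncf4* rose 1.68-fold, whereas *Ncf1* fell by 41.8% and *Rac1* fell by 30.7% (limma adjusted p = 1.58e-08, 2.41e-09 and 4.30e-08).

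*Slc7a11* is also a known target of ATF4, a transcription factor of the integrated stress response. Of 12 genes listed for that program, some of which stand in the lists above, 11 rose and 1 fell, while 33.3% of all tested genes were higher and 41.0% lower. Their median log2 fold change was 1.44, beside -0.05 over all tested genes. *Ddit3* rose 18.2-fold and *Trib3* 13.4-fold, and *Psat1* fell by 9.25% (limma adjusted p = 1.29e-13, 1.92e-12 and 0.00384). The part of ATF4 in the change of *Slc7a11* was not tested.

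**Figure D5:**
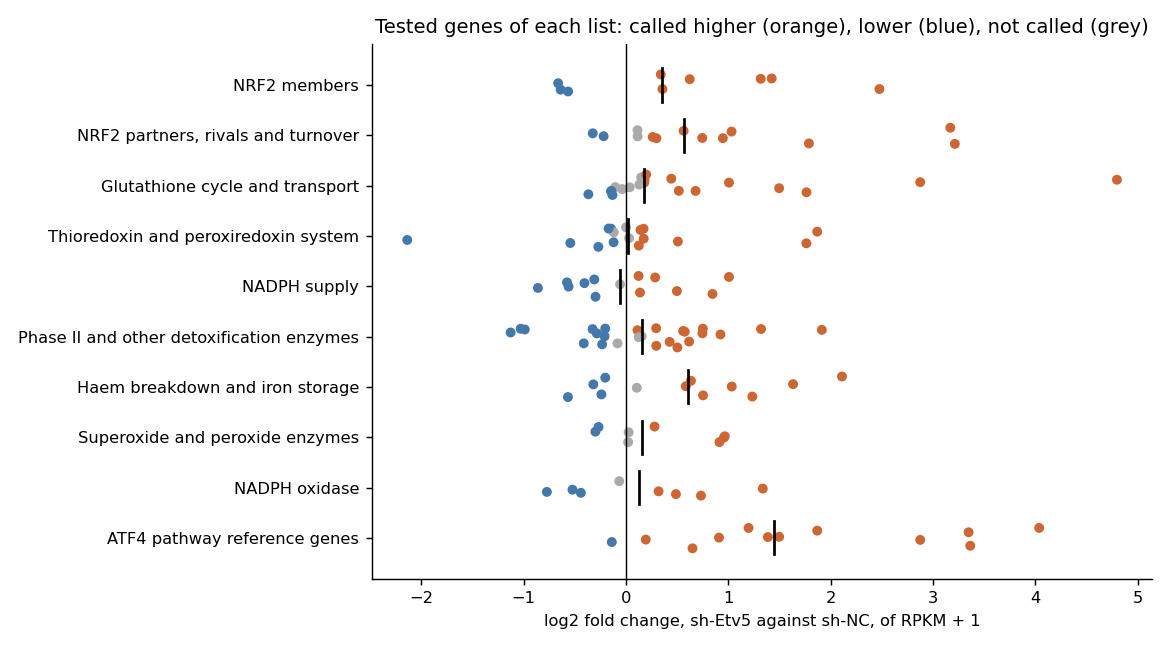
Log2 fold change of RPKM + 1, sh-Etv5 against sh-NC (x axis), of each tested gene of the 10 NRF2 genes and of 9 related lists (rows); orange points were called higher, blue lower and grey not called at a limma adjusted p under 0.05, and black bars mark medians. The medians run from -0.06 for NADPH supply to 1.44 for the ATF4 list, and points lie on either side of 0 in every row.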

How the data were processed

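Messenger RNA of Raw264.7 cells was measured in 6 libraries, grouped by the sample titles. The authors deposited RPKM values, not log transformed, per gene symbol and library, in columns named after coverage tracks; the submitters' processing notes name mm10, and the aligner, annotation and strand setting are not given in the sources used here. Scaling by gene length and library total is therefore already part of the values, and a few strongly changed genes can shift all others. Only 4.86% of low values were whole multiples (within 0.02) of the lowest value of their gene. That check compares values between libraries of unknown depth, so it cannot decide whether reads are recoverable. Reads and depth were not recovered, and no counting interval was given.

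Genes with at least 1 RPKM in at least 3 libraries entered a linear model of log2(RPKM + 1) on group, without covariates (limma 3.58.1, R 4.3.3, moderated two-sided test with an intensity trend). A gene was called where its p-value, after Benjamini-Hochberg adjustment, was under 0.05. Fold changes on this scale understate changes of low genes. The code was tested on simulated data. Ratios were tested by exact permutation (SciPy 1.17.1, Python 3.11.15). Coordinates came from GENCODE release M21 by symbol (24255 of 24786 symbols, 97.9%), and start-site sequences from RefSeq. *Cybc1* was not found under that symbol.

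The 10 genes and all lists were chosen with earlier results of these data known. Named genes are the 10 genes, *Etv5*, 4 macrophage markers, and in each list the 2 called genes with the largest rise and the 2 with the largest fall. 1 gene that this rule names is not reported here. Other genes were named after their values were seen. Alternatives tried were a pseudocount of 0.1 or 0.01, removal of the filter or a mean of at least 5 RPKM in its place, rescaling to equal sums (with and without the 10 highest genes of any library), quantile normalization, eBayes without trend, the replicate number as a block, leaving out each library, and an absolute log2 fold change above 0.5.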

Additional observations from a re-analysis of the deposited data

How the results depend on the processing

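All 9 tested genes of the set kept their direction and an adjusted p under 0.05 in limma under each of the 15 other fits, with adjusted p-values of at most 0.000652, and leaving out any library gave 9 calls each time (6 higher, 3 lower). Requiring an absolute log2 fold change above 0.5 removed *Gclm* and *Txnrd1* from the calls and lowered the counts over all genes from 7974 to 3322 (1711 higher, 1611 lower), by its own construction. In the lists it left 7 higher and 0 lower genes for glutathione, 3 and 2 for thioredoxin, 2 and 3 for NADPH supply, 0 lower partners of NRF2, 3 lower detoxification genes, 1 lower haem gene, 0 lower superoxide genes, 2 higher NADPH oxidase genes and 0 lower ATF4 genes. The 4 lower glutathione genes became 2 without a filter and 2 with quantile normalization, and between 1 and 4 with a library left out: 1 without sh-NC replicate 2 and 2 without sh-*Etv5* replicate 2; the cause was not tested. All other list counts stayed within 1.5 times. The ratio differences on the log2 scale stayed between 1.01 and 1.12 (*Gclm* to *Gclc*), 0.72 and 0.81 (*Srxn1* to *Prdx1*) and -0.09 and -0.04 (*Keap1* to *Nfe2l2*) with each library left out. A replicate block gave 3539 higher and 4361 lower genes, and the 9 genes kept their calls (adjusted p at most 9.50e-05). Deviations of same-numbered libraries correlated at 0.0739, -0.071 and -0.0352, and 2 of 6 libraries correlated best with their own number. These values show no pairing by number, but they cannot show whether same-numbered libraries were prepared together. Depth is unknown, which limits any statement on *Nqo1* and the other genes near 0.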
